A study of Mus musculus with 6 samples.

Results

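The genes described here build and trim N-linked glycans or make the GPI anchor. They were chosen by symbol: the ALG, MGAT, MAN1 and MAN2, FUT and DPM families, the PIG and PGAP series and GPAA1, if they averaged 1 FPKM or more across the 6 tumours. FPKM is the number of sequenced fragments scaled to transcript length and to all mapped fragments, so levels can be set side by side between genes. Of 71 matching symbols among 23284 listed, 59 reached the minimum, and all 59 were among the 12586 genes tested. The tumours were xenografts of STS26T, an established human line of malignant peripheral nerve sheath tumour, grown beneath the skin of athymic nude mice. In 3 tumours (anti-ENG 1 to 3) the mice received TRC105, an antibody to human endoglin, together with M1043, an antibody to mouse endoglin. In the other 3 (IgG control 1 to 3) they received the IgG control, and both arms had 10 mg/kg into the peritoneum 2 times a week for 3 weeks. Athymic mice lack mature T cells, and all tumours come from 1 cell line.

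N-glycans start as a sugar tree on the lipid dolichol in the endoplasmic reticulum (ER), are moved whole onto nascent proteins, and are then cut back by mannosidases and rebuilt by transferases in the Golgi. The GPI anchor is a glycolipid assembled in the same membrane from inositol phospholipid, GlcNAc, mannose and ethanolamine phosphate, and a transamidase joins it to the end of a protein to hold it at the cell surface. Both routes draw mannose from dolichol phosphate mannose.

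The symbols were sorted into roles as follows. The ALG genes gave 13 members of dolichol-linked tree assembly, and ALG1L, a sequence related to ALG1, matched the rule but has no role assigned here. There were 3 genes of dolichol phosphate mannose synthase, 5 mannosidases of N-glycan trimming, 5 genes of branching, 4 fucosyltransferases and 25 genes of the GPI anchor. A further 3 mannosidases, MAN2B1, MAN2B2 and MAN2C1, take glycans apart in lysosomes or cytosol and do not build them. The 12 symbols under the minimum included 7 fucosyltransferases, with FUT5 listed at 0 in all 6 tumours. The Golgi mannosidase MAN1C1 had a mean of 0.110 FPKM, and the branching genes MGAT3, MGAT4A and MGAT4C had means of 0.0134, 0.650 and 0.206 FPKM. PIGR, an immunoglobulin receptor whose symbol only resembles the series, was also under the minimum. At the border, ALG1L was just inside with a mean of 1.29 FPKM and FUT2 just outside with 0.970 FPKM.

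Depth relative to IgG control 1, judged by what 1 fragment is worth at low values, ran from 1.14 to 1.46 in anti-ENG tumours and from 1.00 to 1.18 in IgG control tumours. Total depth is unknown. Anti-ENG 1 and IgG control 1 were the farthest apart on the leading principal component, with 44.6% of the variance. Of the Schwann and neural crest markers, 1 of the 6 reported here (MITF) had a mean of at least 1 FPKM. The 6 summed to 4.22, 4.81 and 4.72 FPKM in anti-ENG 1, 2 and 3, against 2.50, 3.35 and 3.16 FPKM in IgG control 1, 2 and 3. The groups of this sum lay apart, higher in anti-ENG tumours, and its part in the results was not tested. S100B was listed at 0 in 4 of the 6 tumours and SOX10 stayed at 0.188 FPKM or less, while the mesenchymal gene VIM had 1386 to 2182 FPKM. ENG itself had 15.5, 29.5 and 26.7 FPKM in anti-ENG 1, 2 and 3, against 41.0, 23.9 and 22.1 FPKM in IgG control 1, 2 and 3, and the groups overlapped. The 5 endothelial markers summed to 2.62 to 4.16 FPKM in anti-ENG and 2.44 to 4.69 FPKM in IgG control tumours, with VWF and KDR at or near 0. The 4 leukocyte markers, mostly CD68, summed to 72.8 to 99.3 FPKM in anti-ENG and 61.1 to 118 FPKM in IgG control tumours. In whole tumours, fewer cells of a type and less RNA per cell cannot be told apart.

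The comparison asks whether the RNA of this machinery differed after treatment with antibodies to endoglin. Most of it had nearly the same level in both arms, and 1 trimming gene and 1 GPI gene stood out by size: MAN1A1 was lower and PIGU higher in the anti-ENG tumours. None of the 59 genes, and none of all genes tested, passed limma at a Benjamini-Hochberg adjusted p under 0.05 (0 higher and 0 lower, 0.0% of genes tested in each direction). At an unadjusted p under 0.05 there were 5 of the 59, or 8.47%, against 9.17% of all genes tested. They were PIGU, PIGP and DPM1, 3 genes with higher values in anti-ENG tumours (background 5.56%), and MAN1A1 and MAN2C1, 2 genes with lower values (background 3.61%). The 3 anti-ENG values lay wholly above or below the 3 IgG control values in 10 of the 59, or 16.9%, against 17.3% of all genes tested. Estimates were above 0 in 32 of the 59, or 54.2%, against 51.2% of all genes tested. By all of these counts the genes were near the background. The median log2 fold change of the 59 was 0.05 and that of all genes tested 0.01, with log2 fold changes taken on log2(FPKM + 1) as anti-ENG minus IgG control. The median of the 59 was -0.06 with the same FPKM sum, where 18 were above 0. It was 0.01 without anti-ENG 1, 0.03 without anti-ENG 2, 0.02 without anti-ENG 3 and 0.02 without IgG control 2. The standard error of these estimates had a median of 0.15, and in 58 of the 59 the 95% interval lay within 1 log2 unit of 0 on both sides.

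**Figure D1:**
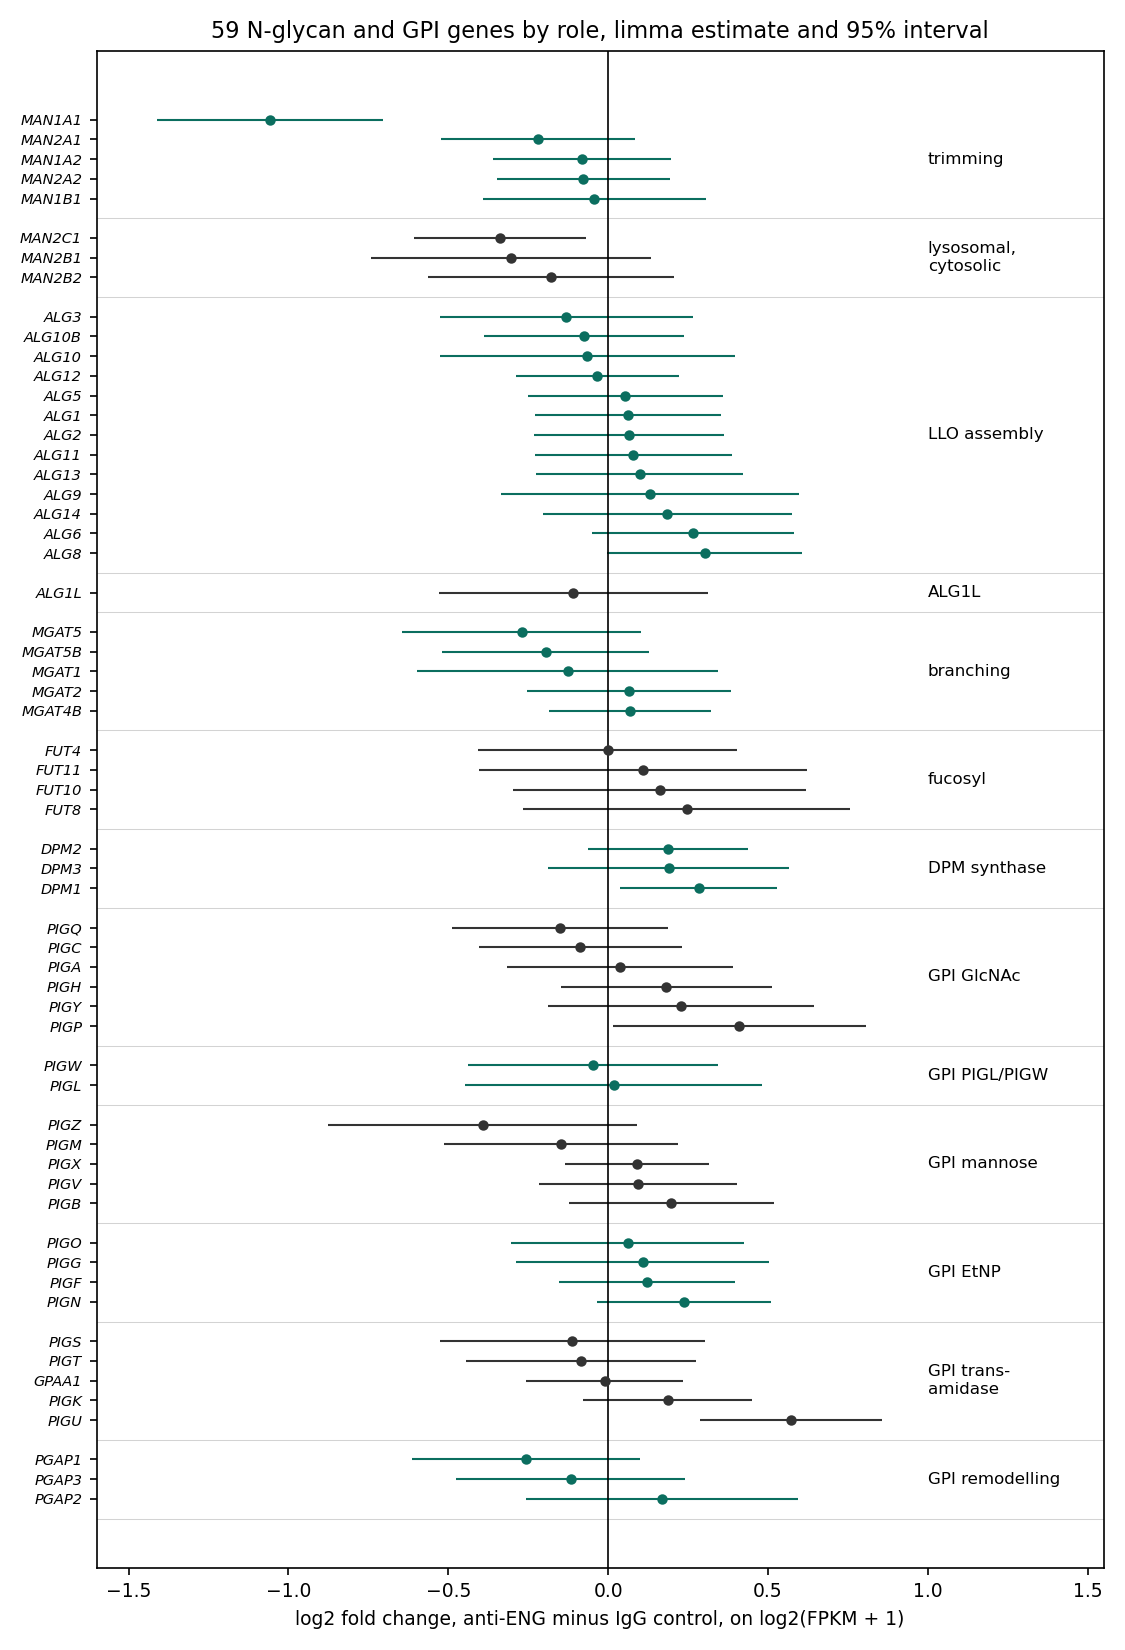
Log2 fold change (anti-ENG minus IgG control, on log2(FPKM + 1)) of each of the 59 genes, grouped by role and sorted within it, with points for limma estimates and bars for 95% intervals (LLO is the dolichol-linked oligosaccharide, EtNP ethanolamine phosphate). MAN1A1 at -1.06 and PIGU at 0.57 lie farthest from 0, and most other intervals cross 0.

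Trimming begins with MAN1B1, the ER mannosidase, and goes on with the Golgi mannosidases MAN1A1 and MAN1A2, which share a reaction and remove the same kind of mannose. MAN1A1 had 7.08, 6.87 and 8.63 FPKM in anti-ENG 1, 2 and 3, against 14.7, 15.7 and 20.1 FPKM in IgG control 1, 2 and 3. All 3 anti-ENG tumours were low, and the highest of them was well under the lowest IgG control tumour. The means were 7.53 ± 0.959 FPKM in anti-ENG and 16.8 ± 2.89 FPKM in IgG control tumours (SD, n = 3 each), a ratio of means of 0.447. On the log2 scale that was a fold change of -1.06 (95% interval -1.41 to -0.71, SE 0.15), with a limma adjusted p of 0.529. MAN1A1 ranked 2 of 12586 by unadjusted p. An exact permutation test, two-sided, gave p = 0.1, the smallest that 3 tumours against 3 allow. The interest in MAN1A1 and in PIGU comes from an earlier look at this same contrast, so neither rank is independent support.

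MAN1A2, the sister gene of MAN1A1, had 10.5, 10.4 and 12.9 FPKM in anti-ENG 1, 2 and 3, against 11.8, 12.5 and 11.5 FPKM in IgG control 1, 2 and 3. These groups overlapped, and the log2 fold change was -0.08 (95% interval -0.36 to 0.20). Since both genes are read in the same tumour, their ratio does not depend on how a tumour was scaled. MAN1A1 over MAN1A2 was 0.672, 0.662 and 0.671 in anti-ENG 1, 2 and 3, against 1.25, 1.25 and 1.75 in IgG control 1, 2 and 3. In every anti-ENG tumour MAN1A2 was thus the more abundant of the pair, and in every IgG control tumour MAN1A1 was. As a share of the summed FPKM of MAN1A1, MAN1A2 and MAN1C1, MAN1A1 made up 39.9% ± 0.288 in anti-ENG tumours and 58.0% ± 4.57 in IgG control tumours (SD, n = 3 each). This ratio and share were chosen after the values were seen and carry no test.

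**Figure D2:**
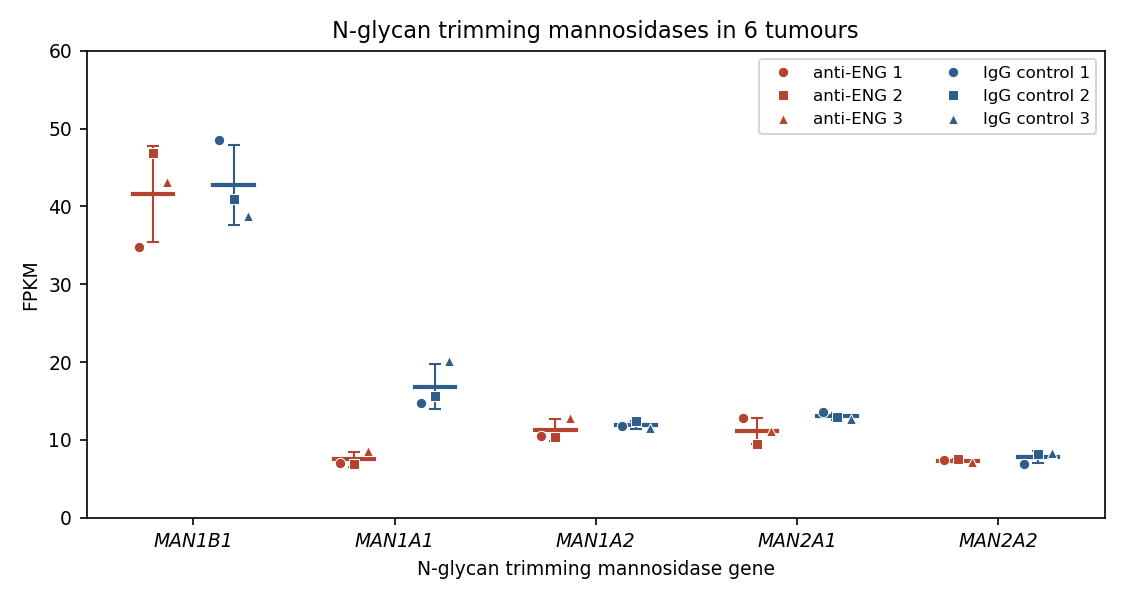
FPKM of the 5 N-glycan trimming mannosidase genes in each tumour, with points for tumours, bars for group means and whiskers for SD (n = 3 each). MAN1A1 is the gene in which the groups lie apart, 6.87 to 8.63 FPKM in anti-ENG against 14.7 to 20.1 FPKM in IgG control tumours.

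The other trimming genes overlapped between the arms. MAN1B1 had 34.8, 46.9 and 43.1 FPKM in anti-ENG 1, 2 and 3, against 48.6, 41.0 and 38.7 FPKM in IgG control 1, 2 and 3. MAN2A1, a Golgi mannosidase that acts after MGAT1 has begun the first branch, had 12.8, 9.45 and 11.2 FPKM in anti-ENG 1, 2 and 3, against 13.6, 12.9 and 12.7 FPKM in IgG control 1, 2 and 3. Its lowest values were both in the anti-ENG arm, and its log2 fold change was -0.22 (95% interval -0.52 to 0.08). MAN2A2, which does the same step, had 7.41, 7.54 and 7.13 FPKM in anti-ENG 1, 2 and 3, against 6.94, 8.24 and 8.36 FPKM in IgG control 1, 2 and 3. All 5 trimming estimates were below 0, against 48.8% of all genes tested. The list had a median log2 fold change of -0.08 with and without MAN1A1, and the genes other than MAN1A1 ran from -0.22 to -0.04. The sign of MAN1B1 turned without anti-ENG 1 or without IgG control 1.

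The mannosidases of breakdown also had estimates below 0. MAN2C1, the cytosolic mannosidase of free glycans, had 21.8, 19.5 and 18.6 FPKM in anti-ENG 1, 2 and 3, against 23.2, 27.0 and 26.3 FPKM in IgG control 1, 2 and 3. The groups lay apart, and the log2 fold change was -0.34 (95% interval -0.61 to -0.07, limma adjusted p = 0.529). MAN2B1, the main lysosomal enzyme, had 25.3, 31.6 and 42.3 FPKM in anti-ENG 1, 2 and 3, against 44.2, 36.8 and 39.9 FPKM in IgG control 1, 2 and 3. MAN2B2, another lysosomal mannosidase, had 9.95, 10.9 and 10.8 FPKM in anti-ENG 1, 2 and 3, against 15.6, 11.2 and 9.98 FPKM in IgG control 1, 2 and 3. In MAN2B1 the range of the arms was set by anti-ENG 1 at the low end, and in MAN2B2 by IgG control 1 at the high end. All 8 mannosidases were below 0 under each of the 4 other scalings tried as well, and 2 of them, MAN1B1 and MAN2B2, were above 0 without both of those tumours.

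Fibroblast markers were also mostly lower in the anti-ENG tumours. The 4 markers of the fibroblast list (DCN, LUM, COL3A1, PDGFRA), all above the minimum, summed to 130, 256 and 349 FPKM in anti-ENG 1, 2 and 3, against 565, 499 and 269 FPKM in IgG control 1, 2 and 3. The groups overlapped, and most of each sum was COL3A1, at 109 to 479 FPKM over all tumours. Host cells are mouse and enter these human gene values only where their reads align. The part of such cells in the MAN1A1 values was not tested. Without anti-ENG 1 and IgG control 1 the log2 fold change of MAN1A1 was -1.11.

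Assembly of the dolichol-linked tree showed no gene in which the arms lay apart, 0 of 13, against 17.3% of all genes tested. Of its estimates 9 were above 0 and 4 below, and their median was 0.07 on the log2 scale. That median was 0.01 without IgG control 1, 0.10 without IgG control 3, -0.03 without both tumours numbered 1 and -0.04 with the same FPKM sum. The largest were those of ALG8 and ALG6, which add glucose at the end of assembly. ALG8 had 17.6, 13.3 and 16.4 FPKM in anti-ENG 1, 2 and 3, against 12.1, 12.2 and 13.3 FPKM in IgG control 1, 2 and 3, a log2 fold change of 0.30 (95% interval -0.002 to 0.61). Only anti-ENG 2 lay among the IgG control values, just under IgG control 3. ALG6 had 6.27, 5.74 and 5.41 FPKM in anti-ENG 1, 2 and 3, against 4.32, 5.48 and 4.25 FPKM in IgG control 1, 2 and 3. Here 1 IgG control tumour, IgG control 2, reached into the anti-ENG range. ALG14, which with ALG13 adds the second GlcNAc, had 11.4, 8.29 and 10.9 FPKM in anti-ENG 1, 2 and 3, against 7.16, 9.60 and 9.79 FPKM in IgG control 1, 2 and 3. Its estimate of 0.19 turned to -0.03 without anti-ENG 1 and IgG control 1. ALG1, ALG2, ALG9, ALG12 and ALG13, all sugar transferases of the tree or, for ALG13, a transferase subunit, had log2 fold changes from -0.03 to 0.13. The most abundant assembly genes were ALG3, a mannosyltransferase of the ER lumen, at a mean of 41.8 FPKM over 6 tumours, and ALG5, which makes dolichol phosphate glucose, at 33.2 FPKM. ALG10 and ALG10B, with means of 1.82 and 3.03 FPKM, are near-identical copies, as ALG1 and ALG1L are related, and the split of reads between such copies is uncertain. ALG11 lies across another gene, UTP14C, and its mean of 7.13 FPKM may hold reads of both.

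Dolichol phosphate mannose synthase, which serves both routes, had estimates above 0 in 3 of 3 genes, also under each of the 4 other scalings. DPM1, the catalytic subunit and the most abundant of the 59 genes, had 171, 155 and 162 FPKM in anti-ENG 1, 2 and 3, against 132, 135 and 133 FPKM in IgG control 1, 2 and 3. The IgG control tumours lay close together, and every anti-ENG tumour was above them. The log2 fold change of DPM1 was 0.28 (95% interval 0.04 to 0.53, limma adjusted p = 0.529), but 0.14 with quantile and 0.11 with cyclic loess normalization. DPM2, a membrane subunit that also joins the first enzyme of the GPI route, had 49.0, 45.4 and 44.9 FPKM in anti-ENG 1, 2 and 3, against 44.1, 39.4 and 38.6 FPKM in IgG control 1, 2 and 3. Its groups lay apart by less than 1 FPKM between anti-ENG 3 and IgG control 1. DPM3, which tethers DPM1, had 62.8, 67.3 and 90.1 FPKM in anti-ENG 1, 2 and 3, against 56.6, 66.7 and 67.8 FPKM in IgG control 1, 2 and 3. The high value was that of anti-ENG 3 alone, and the groups overlapped. Abundant genes as a whole leaned the same way: of the 3806 tested genes with means of 20 to 160 FPKM, 62.7% were above 0, with a median of 0.08.

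Branching genes overlapped between the arms in 5 of 5, where 17.3% of all genes tested lay apart. MGAT1, which adds the GlcNAc that opens complex glycans, had 53.9, 71.0 and 80.3 FPKM in anti-ENG 1, 2 and 3, against 93.4, 62.3 and 68.9 FPKM in IgG control 1, 2 and 3. The lowest value was that of anti-ENG 1 and the highest that of IgG control 1. MGAT5, whose branch is extended into ligands of galectins, had 3.31, 3.73 and 5.01 FPKM in anti-ENG 1, 2 and 3, against 4.52, 5.27 and 5.23 FPKM in IgG control 1, 2 and 3. Its log2 fold change was -0.27 (95% interval -0.64 to 0.10), and the anti-ENG 3 value sat among the IgG control values. MGAT5B, a relative of MGAT5 best known from brain, had 6.29, 5.84 and 4.69 FPKM in anti-ENG 1, 2 and 3, against 6.14, 7.23 and 6.26 FPKM in IgG control 1, 2 and 3. MGAT4B, which adds another branch, varied little, from 45.1 to 53.3 FPKM over all tumours, with a coefficient of variation of 6.48%. MGAT2, which starts the other arm of complex glycans, ran from 29.0 to 38.4 FPKM.

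Among fucosyltransferases FUT8, the enzyme of core fucose, led with 57.6% ± 5.71 of the summed FPKM of the 11 genes in anti-ENG tumours and 55.0% ± 2.25 in IgG control tumours (SD, n = 3 each). FUT8 had 38.0, 26.3 and 19.5 FPKM in anti-ENG 1, 2 and 3, against 22.9, 22.6 and 22.2 FPKM in IgG control 1, 2 and 3. The IgG control tumours were alike, while the anti-ENG tumours lay on both sides of them. Its log2 fold change was 0.25 (95% interval -0.27 to 0.76), and 0.01 without anti-ENG 1. FUT11 had 19.7, 10.3 and 12.6 FPKM in anti-ENG 1, 2 and 3, against 14.0, 12.1 and 11.8 FPKM in IgG control 1, 2 and 3. FUT10 had 2.81, 1.98 and 1.46 FPKM in anti-ENG 1, 2 and 3, against 1.77, 1.64 and 1.73 FPKM in IgG control 1, 2 and 3. In FUT8, FUT10 and FUT11 alike, anti-ENG 1 was the highest of the 6 tumours. FUT4, which makes Lewis-type fucose links, ranged from 1.88 to 2.86 FPKM, with an estimate of -0.001.

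The GPI route opens with a complex of PIGA, its catalytic subunit, and PIGC, PIGH, PIGP, PIGQ and PIGY, which moves GlcNAc onto inositol lipid. Of its 6 genes, 4 had estimates above 0 and 1, PIGP, lay apart between the arms, against 17.3% of all genes tested. PIGP had 15.2, 11.2 and 11.9 FPKM in anti-ENG 1, 2 and 3, against 10.4, 10.3 and 7.41 FPKM in IgG control 1, 2 and 3, or 0.41 as a log2 fold change (95% interval 0.02 to 0.81, limma adjusted p = 0.529). The extremes were anti-ENG 1 and IgG control 3, and without IgG control 3 the value was 0.27. PIGH had 17.4, 13.9 and 18.4 FPKM in anti-ENG 1, 2 and 3, against 15.9, 12.8 and 14.7 FPKM in IgG control 1, 2 and 3. PIGY had 87.3, 71.3 and 60.4 FPKM in anti-ENG 1, 2 and 3, against 50.8, 65.3 and 70.1 FPKM in IgG control 1, 2 and 3. It was the most abundant of the complex, but its transcript also encodes a second protein, PYURF, so this level is not that of PIGY alone. PIGC and PIGQ had log2 fold changes of -0.09 and -0.15, with overlapping groups. PIGA itself ranged from 9.79 to 13.3 FPKM, with a log2 fold change of 0.04 (95% interval -0.32 to 0.39).

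In the middle steps, the arms lay apart in 2 of the 5 genes of mannose transfer, and overlapped in PIGW and PIGL. Values in anti-ENG tumours were higher in PIGX and lower in PIGZ. Of all genes tested, 10.6% lay apart with higher and 6.75% with lower values. PIGW, which acylates inositol, had 14.1, 12.7 and 15.0 FPKM in anti-ENG 1, 2 and 3, against 11.4, 14.4 and 18.0 FPKM in IgG control 1, 2 and 3. PIGL, the deacetylase, had 8.30, 7.69 and 5.85 FPKM in anti-ENG 1, 2 and 3, against 5.44, 7.15 and 9.17 FPKM in IgG control 1, 2 and 3. In both genes the IgG control tumours spread more widely than the anti-ENG tumours. PIGX, the partner of the first mannosyltransferase PIGM, was the steadiest of all 59, with a coefficient of variation of 4.26%. Its groups lay apart by a small margin, 15.8 to 16.6 FPKM in anti-ENG tumours against 14.8 to 15.5 FPKM in IgG control tumours. Its log2 fold change of 0.09 was -0.02 with the same FPKM sum. PIGZ, which adds an optional extra mannose, had 0.840, 1.68 and 1.69 FPKM in anti-ENG 1, 2 and 3, against 2.06, 2.46 and 1.84 FPKM in IgG control 1, 2 and 3. The groups lay apart with a log2 fold change of -0.39 (95% interval -0.88 to 0.09), which was -0.21 without anti-ENG 1. PIGB, which adds the third mannose, had 6.38, 7.01 and 5.33 FPKM in anti-ENG 1, 2 and 3, against 4.85, 5.85 and 5.20 FPKM in IgG control 1, 2 and 3. PIGM had 4.87, 6.78 and 6.76 FPKM in anti-ENG 1, 2 and 3, against 5.97, 7.56 and 7.08 FPKM in IgG control 1, 2 and 3. Both overlapped between the arms, as did PIGV, which adds the second mannose, at a log2 fold change of 0.09.

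Ethanolamine phosphate is placed on the mannoses by PIGN, PIGO and PIGG, the last pair with PIGF. All 4 estimates were above 0, from 0.06 to 0.24, but 2 of 4 with each tumour rescaled to the same FPKM sum or without anti-ENG 1. PIGN had 5.92, 6.12 and 6.93 FPKM in anti-ENG 1, 2 and 3, against 5.46, 5.07 and 5.08 FPKM in IgG control 1, 2 and 3. The groups lay apart, and the log2 fold change was 0.24 (95% interval -0.03 to 0.51, limma adjusted p = 0.538). PIGF had 26.8, 22.0 and 25.3 FPKM in anti-ENG 1, 2 and 3, against 23.6, 20.7 and 23.4 FPKM in IgG control 1, 2 and 3. PIGG had 11.9, 9.96 and 7.57 FPKM in anti-ENG 1, 2 and 3, against 9.62, 7.91 and 9.23 FPKM in IgG control 1, 2 and 3. PIGO ran from 9.47 to 14.3 FPKM over all tumours. In PIGG the anti-ENG tumours held both the highest and the lowest value.

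The transamidase that attaches the anchor is made of PIGK, its protease subunit, with GPAA1, PIGS, PIGT and PIGU. PIGU had 23.7, 19.9 and 19.5 FPKM in anti-ENG 1, 2 and 3, against 13.4, 12.9 and 15.1 FPKM in IgG control 1, 2 and 3. All 3 anti-ENG tumours were above all 3 IgG control tumours, and anti-ENG 1 was highest. The means were 21.04 ± 2.28 FPKM in anti-ENG and 13.8 ± 1.16 FPKM in IgG control tumours (SD, n = 3 each), a ratio of means of 1.52. On the log2 scale that was a fold change of 0.57 (95% interval 0.29 to 0.86, SE 0.12), with a limma adjusted p of 0.529. An exact permutation test, two-sided, again gave the smallest possible p of 0.1, and PIGU ranked 24 of 12586 by unadjusted p. Relative depth was highest in anti-ENG 1 as well, at 1.46, and its part in the PIGU values was not tested.

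The partners of PIGU overlapped between the arms. PIGK had 15.9, 17.6 and 17.9 FPKM in anti-ENG 1, 2 and 3, against 15.9, 15.4 and 13.5 FPKM in IgG control 1, 2 and 3, with anti-ENG 1 and IgG control 1 nearly equal. PIGS had 16.9, 23.0 and 23.9 FPKM in anti-ENG 1, 2 and 3, against 28.0, 20.6 and 20.6 FPKM in IgG control 1, 2 and 3. PIGT, the most abundant subunit, had 110, 128 and 153 FPKM in anti-ENG 1, 2 and 3, against 153, 134 and 126 FPKM in IgG control 1, 2 and 3. In PIGS and PIGT the lowest tumour was anti-ENG 1, the same tumour in which PIGU was highest. GPAA1 was steady, with 72.1, 68.1 and 66.3 FPKM in anti-ENG 1, 2 and 3, against 71.1, 72.2 and 64.8 FPKM in IgG control 1, 2 and 3. The log2 fold changes were 0.19 for PIGK (95% interval -0.08 to 0.45), -0.11 for PIGS (-0.53 to 0.30), -0.08 for PIGT (-0.45 to 0.28) and -0.01 for GPAA1 (-0.26 to 0.24).

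**Figure D3:**
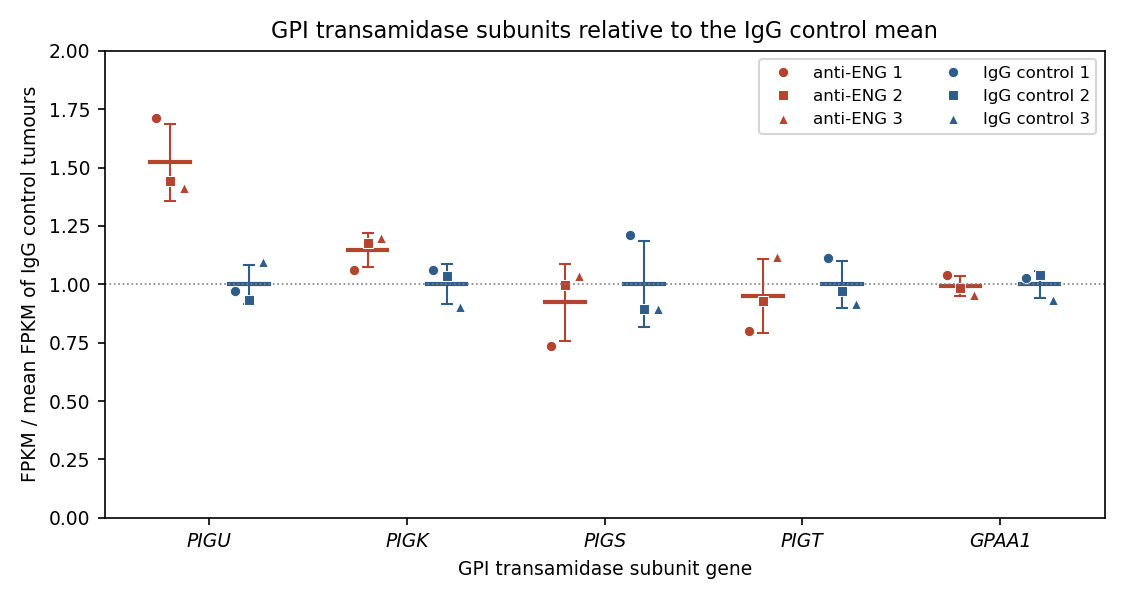
Level of each GPI transamidase gene in each tumour, as FPKM over the mean FPKM of the IgG control tumours (points for tumours, bars for group means, whiskers for SD, n = 3 each). The PIGU points of the 3 anti-ENG tumours lie above all 3 IgG control points, and the groups of the other 4 genes overlap.

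Within a tumour, PIGU over GPAA1 was 0.328, 0.292 and 0.294 in anti-ENG 1, 2 and 3, against 0.189, 0.179 and 0.233 in IgG control 1, 2 and 3. These groups did not overlap. PIGU over PIGK was 1.49, 1.13 and 1.09 in anti-ENG 1, 2 and 3, against 0.847, 0.834 and 1.12 in IgG control 1, 2 and 3, and here IgG control 3 reached into the anti-ENG range. As a share of the summed FPKM of the 5 genes, PIGU made up 9.92, 7.77 and 6.94% in anti-ENG 1, 2 and 3, against 4.77, 5.06 and 6.30% in IgG control 1, 2 and 3. The difference between PIGU and its partners was not tested, and these ratios were chosen after the values were seen.

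**Figure D4:**
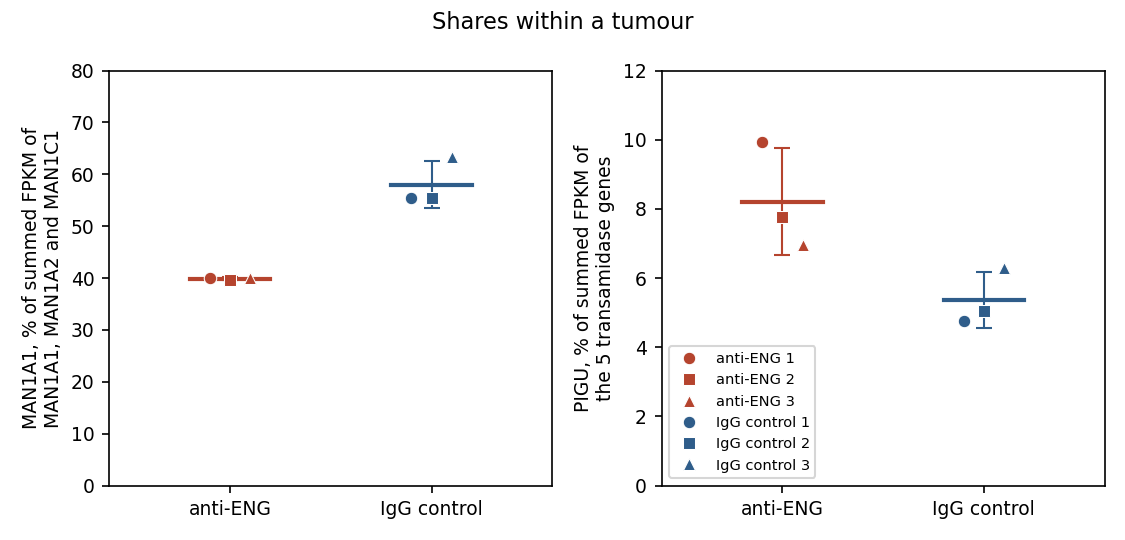
Share of MAN1A1 in the summed FPKM of MAN1A1, MAN1A2 and MAN1C1 (left) and of PIGU in that of the 5 transamidase genes (right), in % per tumour, with bars for group means and whiskers for SD (n = 3 each). The MAN1A1 share is 39.5 to 40.0% in anti-ENG and 55.3 to 63.3% in IgG control tumours, and the PIGU share 6.94 to 9.92% in anti-ENG and 4.77 to 6.30% in IgG control tumours.

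After attachment the anchor is remodelled by PGAP1, which removes the acyl chain of inositol in the ER, and by PGAP3 and PGAP2, which exchange a fatty acid in the Golgi. PGAP1 had 2.31, 1.97 and 1.73 FPKM in anti-ENG 1, 2 and 3, against 2.65, 2.79 and 2.32 FPKM in IgG control 1, 2 and 3. Its groups lay just apart, with anti-ENG 1 next to IgG control 3, and the log2 fold change was -0.26 (95% interval -0.62 to 0.10). PGAP3 had 10.6, 15.4 and 14.0 FPKM in anti-ENG 1, 2 and 3, against 13.0, 15.3 and 15.0 FPKM in IgG control 1, 2 and 3. PGAP2 had 6.16, 6.35 and 5.23 FPKM in anti-ENG 1, 2 and 3, against 3.78, 6.42 and 5.50 FPKM in IgG control 1, 2 and 3. The low PGAP2 value was that of IgG control 1.

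Over the whole GPI route, 15 of 25 estimates were above 0 and 10 below, with a median log2 fold change of 0.06, and 0.05 without PIGU. The arms lay apart in 6 of the 25, with 4 higher (PIGU, PIGP, PIGN, PIGX) against 10.6% of all genes tested and 2 lower (PIGZ, PGAP1) against 6.75%. The trimming genes had 1 of 5 apart, MAN1A1, which was lower. Set beside each other, the medians were -0.08 for trimming and 0.06 for GPI genes on the log2 scale. With each gene centred on its mean over all tumours, the trimming median was -0.12, -0.14 and -0.08 in anti-ENG 1, 2 and 3, against 0.16, 0.10 and 0.07 in IgG control 1, 2 and 3. The GPI median was 0.06 in each of anti-ENG 1, 2 and 3, against -0.01 in each of IgG control 1, 2 and 3. On both lists the arms did not overlap, and no test was made of these medians. The trimming list holds MAN1A1 and the GPI list PIGU, both known from an earlier look at this contrast. The gaps are therefore no independent support, and the part of MAN1A1 and PIGU in them was not tested. The median log2 fold change of the GPI genes, 0.06 with all tumours, was 0.03 without anti-ENG 1 or without IgG control 2. It was 0.11 without IgG control 3. The median log2 fold change of the trimming genes, -0.08 with all tumours, was -0.17 without anti-ENG 3 and -0.15 without IgG control 1. With each tumour rescaled to the same FPKM sum, a scaling that moved the median of all genes by about -0.10, 9 of 25 GPI estimates were above 0 and their median was -0.05. Without anti-ENG 1 and IgG control 1 the median log2 fold change was 0.02 for GPI and -0.16 for trimming genes.

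**Figure D5:**
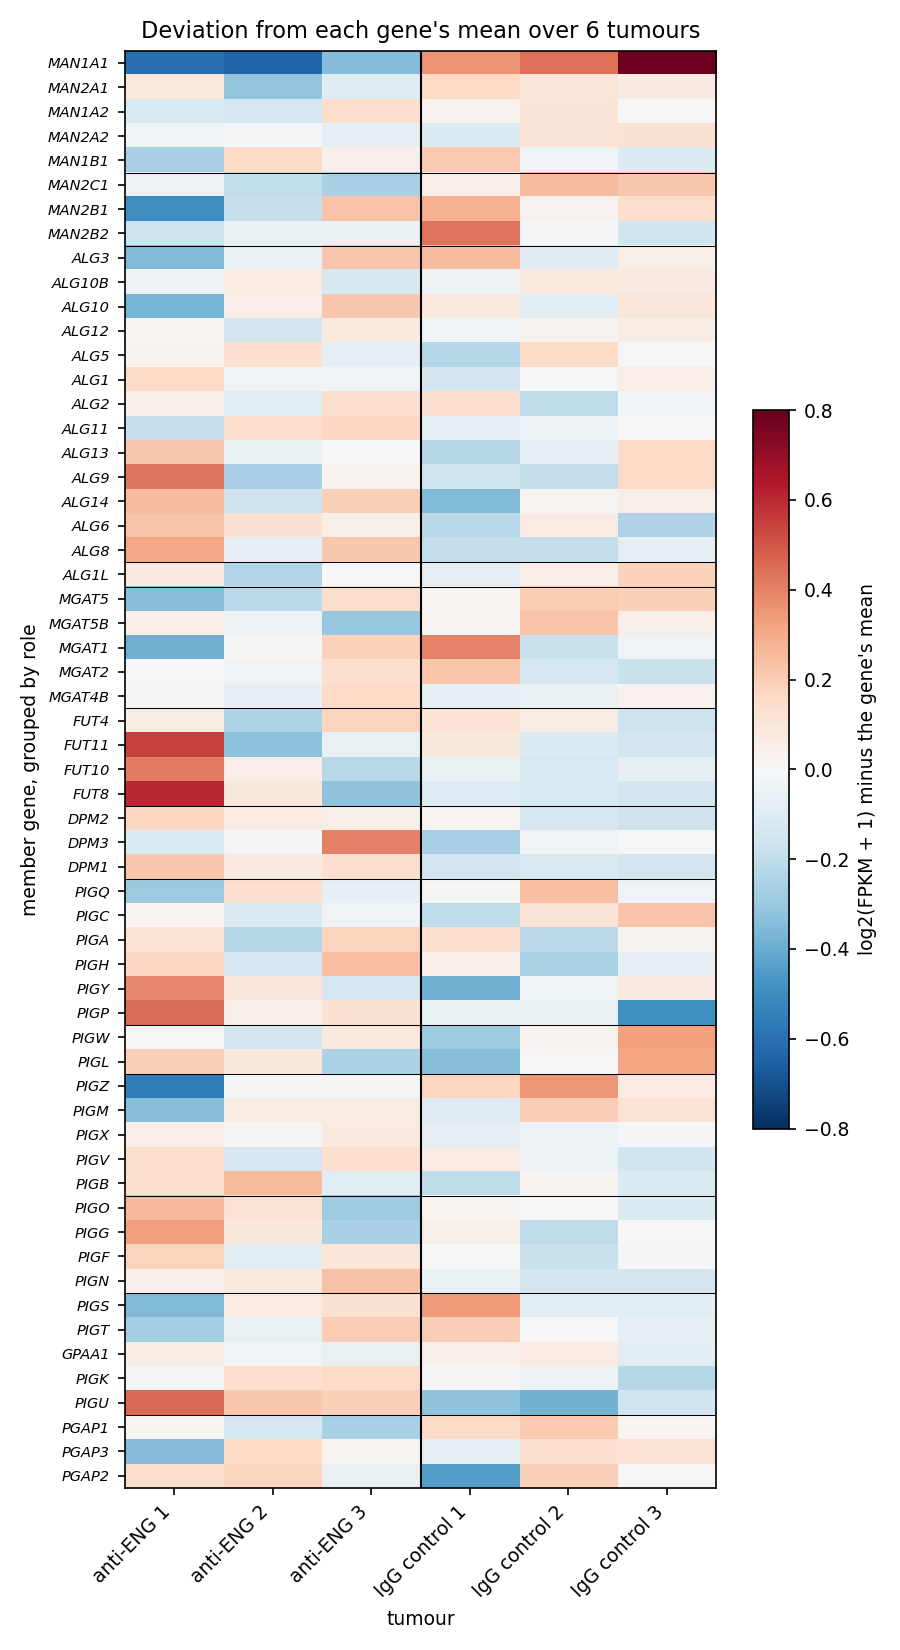
Deviation of log2(FPKM + 1) from the mean of each gene over 6 tumours (colour, from -0.8 to 0.8) for the 59 genes in rows, by role, and tumours in columns. MAN1A1 (log2 fold change -1.06) and PIGU (0.57) have opposite colours in the arms, and anti-ENG 1 is the highest tumour in 18 rows and the lowest in 14.

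The highest and lowest values of the genes were not spread evenly over the tumours. Anti-ENG 1 was the highest of the 6 tumours in 18 of the 59 genes and the lowest in 14, and IgG control 1 was the highest in 8 and the lowest in 16. Anti-ENG 2 was the highest in 2 and the lowest in 9. Over all tumours the coefficient of variation had a median of 14.1%. It was widest in MAN1A1 at 44.8%, PIGZ at 30.5%, FUT8 at 26.2%, FUT10 at 25.1% and FUT11 at 24.7%, followed by PIGU at 24.5%. This coefficient includes any difference between the arms. Within arms, MAN1A1 had 7.53 ± 0.959 FPKM in anti-ENG and 16.8 ± 2.89 FPKM in IgG control tumours (SD, n = 3 each). PIGU had 21.04 ± 2.28 FPKM in anti-ENG and 13.8 ± 1.16 FPKM in IgG control tumours. By level, DPM1 and PIGT led with means of 148 and 134 FPKM over 6 tumours, and their ranges overlapped. MGAT1, GPAA1, DPM3 and PIGY followed at 71.6, 69.1, 68.5 and 67.5 FPKM, with overlapping ranges. MAN1A1, MAN2A1 and MAN1A2 had nearly the same mean level, 12.2, 12.1 and 11.6 FPKM.

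Other genes of these pathways, listed by function but with earlier results of these data known, likewise had 0 genes past the adjusted threshold. Of 13 genes of dolichol, nucleotide sugar and early ER steps, 8 were above 0 (5 with the same FPKM sum), with a median log2 fold change of 0.09 that turned to -0.01 with the same FPKM sum. It was 0.18 without anti-ENG 2 and 0.02 without anti-ENG 3. MPDU1, needed to use dolichol-linked mannose and glucose, had 44.7, 38.5 and 38.2 FPKM in anti-ENG 1, 2 and 3, against 32.5, 32.9 and 31.6 FPKM in IgG control 1, 2 and 3, a log2 fold change of 0.31 (limma adjusted p = 0.529). Every anti-ENG tumour was above the IgG control tumours, as for DPM1. DOLPP1, which recycles dolichol pyrophosphate, had 0.36 and SRD5A3, which completes dolichol, 0.33 on the same scale. Of 12 genes of the oligosaccharyltransferase, which moves the tree onto proteins, 11 were above 0. That count was 8 with quantile or cyclic loess normalization or without anti-ENG 3, and 7 with the same FPKM sum. Of all genes tested 51.2% were above 0, and of those with means of 20 to 160 FPKM 62.7% were. DAD1, C11orf10 (TMEM258), RPN2 and DDOST, with means of 163, 165, 213 and 246 FPKM, lay above that range. The range is thus no full match for the list, and no share was taken for genes above it. The mean levels of the 12 genes had a median of 111 FPKM. STT3A, a catalytic subunit, averaged 99.0 ± 13.6 FPKM in anti-ENG and 77.1 ± 9.77 FPKM in IgG control tumours (SD, n = 3 each). The small subunits DAD1 and C11orf10 (TMEM258) had log2 fold changes of 0.29 and 0.27.

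The ER glucosidases and folding sensors leaned the other way in 10 of 11 genes, with a median log2 fold change of -0.13. Of all genes tested 48.8% were below 0. MOGS, the glucosidase that makes the first cut, averaged 30.8 ± 8.35 FPKM in anti-ENG and 42.6 ± 3.30 FPKM in IgG control tumours (SD, n = 3 each). Its log2 fold change of -0.49 was -0.26 without anti-ENG 1. UGGT1 and UGGT2, sensors of unfolded glycoproteins, had log2 fold changes of -0.18 and -0.21. That lean rested on single tumours: without anti-ENG 1, 6 of the 11 were above 0, and without IgG control 1, 5 were, against 1 with all tumours. The median was 0.02 without anti-ENG 1, -0.05 without IgG control 1 and -0.22 without anti-ENG 3. Of 13 genes of Golgi extension and sugar transport, 9 were above 0 (5 with the same FPKM sum), with a median of 0.07. This was 0.15 without anti-ENG 2 or without IgG control 1, 0.04 without IgG control 2 and -0.04 with the same FPKM sum. TSTA3, which makes GDP-fucose, had a log2 fold change of 0.22, the galactosyltransferase gene B4GALT2 0.21 and GMDS, which also makes GDP-fucose, 0.26. They had the smallest limma p of that list, while its largest estimate was that of B4GALT1 at -0.37, with overlapping groups. ST6GAL1, a sialyltransferase, stayed under the minimum. Of the 28 listed genes for GPI-anchored surface proteins 21 were tested, and 13 were above 0 (8 with the same FPKM sum and 10 with cyclic loess), with a median of 0.08. This was 0.05 without anti-ENG 3, 0.03 without IgG control 3, 0.25 without both tumours numbered 1, and -0.02 with cyclic loess or with the same FPKM sum. ULBP3, a ligand of the NKG2D receptor, had a log2 fold change of 0.32, the ephrin gene EFNA4 0.30 and NT5E, the ectoenzyme CD73, 0.31. These were the genes of smallest limma p in the list, not those of largest estimate. Larger estimates were those of EFNA1 at -0.39, CD55 at -0.38, PLAUR at -0.37 and GAS1 at 0.50, all with overlapping groups. NT5E had 231, 206 and 196 FPKM in anti-ENG 1, 2 and 3, against 223, 166 and 131 FPKM in IgG control 1, 2 and 3, and the groups overlapped.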

How the data were processed

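Per the labels' protocols, polyadenylated RNA of 6 xenograft tumours was sequenced, with more than 1 kit and instrument named but not tied to samples. A kit or instrument difference that coincides with the arms cannot be told apart from treatment. The authors deposited FPKM values, 1 column per tumour. The submitters' processing notes name Cufflinks 2.2.1, Cuffnorm, TopHat2 2.0.10, Bowtie 1.0.0 and human build GRCh37. Annotation, scaling, strand use and the treatment of mouse reads are not given in the sources used here.

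Because such values are no counts, limma 3.58.1 in R 4.3.3 was fitted on log2(FPKM + 1) to all 12586 genes averaging 1 FPKM or more, without covariates and with the variance allowed to follow the mean. Tests were two-sided, with Benjamini-Hochberg adjustment over all of these genes. The scale understates changes of low genes. The fit was tested on simulated data, and no set test was run. Intervals cover the spread between tumours. Titles gave the groups and replicate numbers. In the descriptions, IgG control 2 and 3 share a code number, as do anti-ENG 1 and 2. Whether such tumours grew in 1 animal is not stated. If they did, they are not independent, and the n of 3 per arm is overstated. Intervals may then be too narrow and p-values too small.

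Genes given in every tumour were the trimming and transamidase genes, up to 3 of smallest p in every other role, MPDU1, NT5E and ENG. The other genes of smallest p in the lists of further pathway genes were given as log2 fold changes or group means. Any further genes were named after their values were seen. A marker of the Schwann list is not reported here. The members and lists were chosen with earlier results of these data known. Alternatives covered the pseudocount, the minimum, scaling, the variance model, sample weights, a replicate block, code-number averages and leaving out tumours. Cyclic loess normalization and leaving out both tumours numbered 1 were added after seeing the data.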

Additional observations from a re-analysis of the deposited data

How the results depend on the processing

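No gene of the 59, nor of all genes tested, passed the adjusted threshold under any of the 18 alternatives fitted with limma. At an unadjusted p under 0.05 the split of all genes was 700 higher and 454 lower, but 168 and 1088 with the same FPKM sum, 453 and 498 with cyclic loess and 496 and 572 with upper quartile rescaling. Of the 59 genes, 2 to 6 were at that level. Log2 fold changes of MAN1A1 ran from -1.17 to -0.93 and those of PIGU from 0.46 to 0.63. Deviations of same-numbered tumours had correlations of -0.33, 0.19 and 0.04, and those of differently numbered tumours ran from -0.49 to 0.35. With so few tumours these values cannot tell whether the numbers pair them. With a replicate block 0 genes passed, with 460 higher and 382 lower at an unadjusted limma p under 0.05. The trimming median, -0.083, was -0.194 with the same FPKM sum, -0.123 with sample weights, -0.158 without both tumours numbered 1, -0.128 with cyclic loess and -0.199 with MAN2B1, MAN2B2 and MAN2C1, and -0.174 to -0.071 leaving out 1 tumour. The GPI median, 0.061, was 0.064 with a pseudocount of 0.1, 0.090 with a minimum of 5 FPKM, 0.033 with upper quartile rescaling, 0.079 with quantile normalization, -0.051 with the same FPKM sum, 0.041 with code numbers averaged, 0.044 with sample weights, 0.022 without both tumours numbered 1, 0.091 with the DPM genes and 0.075 without the transamidase, and 0.031 to 0.105 leaving out 1 tumour. Of the 59 signs, 14 turned with the same FPKM sum, all to below 0. There were 18 turned without both tumours numbered 1 (10 to below and 8 to above 0), 14 without anti-ENG 1 (7 and 7) and at most 8 under any other alternative. Of the genes given in every tumour, those that turned were as follows. With the same FPKM sum FUT11 had -0.0035, PIGG -0.0021 and PIGL -0.090, and with upper quartile rescaling PIGL had -0.010. With sample weights MAN1B1 had 0.054, MGAT1 0.047, PIGL -0.110, PIGS 0.032 and PIGT 0.013, and with code numbers averaged PIGW had 0.056. Without both tumours numbered 1 the values were -0.025 for ALG14, 0.276 for ENG, -0.066 for FUT11, 0.170 for MAN1B1, 0.032 for MAN2B2, 0.202 for MGAT1, -0.037 for PGAP2, -0.239 for PIGL, 0.178 for PIGS, 0.109 for PIGT and -0.043 for PIGY. Leaving out 1 tumour gave -0.435 to 0.00695 for ENG, -0.0024 to 0.313 for FUT10, -0.138 to 0.302 for FUT11, -0.058 to 0.019 for GPAA1, -0.133 to 0.077 for MAN1B1, -0.250 to 0.042 for MGAT1, -0.011 to 0.306 for PGAP2, -0.222 to 0.028 for PGAP3, -0.030 to 0.265 for PIGG, -0.149 to 0.180 for PIGL, -0.199 to 0.037 for PIGS, -0.208 to 0.031 for PIGT and -0.201 to 0.105 for PIGW. The cause of these moves was not tested. With 3 tumours an arm and unknown total depth, a single gene's 95% interval had a median width of 0.35 on each side. Smaller differences mostly had intervals that crossed 0. That width is not a detection limit of the adjusted test. MAN1A1 at -1.06 and PIGU at 0.57 both had a limma adjusted p of 0.529.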
